A study of Homo sapiens with 6 samples.

Results

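Chromosome 22 is one of the most gene-dense human chromosomes, and it was examined here for where YAP and TAZ were found on chromatin. Its members were all deposited peaks whose chromosome is 22 in build hg19. They came to 22229 of the 1389618 peaks on chromosomes 1 to 22 and X, summed over 4 peak lists. The YAP libraries held 5766 (replicate 1) and 5427 (replicate 2) of them, and the TAZ libraries held 5483 and 5553. The chromosome was chosen by measured values: many peaks, but few of the best-ranked ones. Peak rank and every contrast of chromosome 22 with other chromosomes are therefore given as a description, without a test.

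Chromatin immunoprecipitation and sequencing (ChIP-seq) had been done in H1299 cells, a human line established from a non-small cell lung carcinoma. The groups were 2 libraries made with an antibody against YAP, 2 made with an antibody against TAZ and 2 input libraries with no antibody. All cells came from the same line and had been serum starved for 18 hours, so no group represents cells growing in serum. The inputs entered only through the peak lists called against them. The labels do not tell whether replicates were grown as separate cultures, so the spread between libraries may be technical.

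YAP and its relative TAZ (encoded by WWTR1) are transcriptional coactivators that the Hippo kinases hold in the cytoplasm. When the pathway is off they enter the nucleus and reach DNA through partners, above all the TEAD factors. Chromosome 22 is acrocentric: its short arm consists mostly of satellite and ribosomal repeats, and nearly all its genes lie on the long arm. Among them the RefSeq table of assembly GRCh38.p14 lists NF2, whose product Merlin activates the Hippo kinases. The same table lists MYH9, a non-muscle myosin heavy chain, and EP300, a histone acetyltransferase used by many coactivators. The peak lists follow another build than that table, so no peak was assigned to a gene and no sequence of a peak was read.

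Read totals cannot be taken from peak lists; sequencing depth is therefore unknown and limits what list length can show. The authors' fold is the enrichment of the ChIP signal over input across a peak. The deposited −log10 q, the peak caller's corrected significance, was used to rank peaks within a library. Strong peaks are the 20000 best-ranked peaks of each library. The peak names inside all 4 lists named 1 common input while the list names referred to another input for replicates 1 than for replicates 2; which input was used is not settled. Shares of peaks have 95% Wilson intervals, which cover counting error only.

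With 451 protein-coding genes over the 35.2 Mb between its outermost peaks, chromosome 22 ranked 3 of 23 chromosomes in genes per Mb, after 19 and 17. It ranked 3 in covered share and in median peak width, and 2 in peaks per Mb. The share of its peaks that were strong was the second lowest of the 23 in the mean over libraries, after chromosome X, as the choice of the chromosome leads to. Per Mb it had 3.55 strong peaks in that mean, the fifth lowest. Chromosome 11, which ranked 4 in genes per Mb, had fewer, with 2.60 per Mb. Its share of strong peaks, 2.39%, was close to the 2.26% of chromosome 22. The median fold of chromosome 22 was the second lowest in each of the 4 libraries, again after chromosome X.

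Peaks covered 28.0% and 24.5% of the span of chromosome 22 with YAP and 23.4% and 27.5% with TAZ. Replicates of 1 antibody thus lay further apart than the antibody means. The median width was 983.5 and 1018 bp with YAP and 976 and 1096 bp with TAZ. The median fold was 3.02 and 3.06 for YAP, against 3.10 and 2.91 for TAZ. Few peaks were strong, with 94 and 124 in the YAP lists and 151 and 131 in the TAZ lists. These are 1.63% and 2.28% of the chromosome's YAP peaks and 2.75% and 2.36% of its TAZ peaks. Over all chromosomes, 5.1% and 5.66% of the YAP peaks and 6% and 6.44% of the TAZ peaks were strong.

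The scarcity of strong peaks was uneven along the chromosome. When the fold of successive peaks was split at the position that best separates a higher from a lower mean, all 4 libraries placed the step within 83.1 kb. The last peak before it ended at 29262966 and 29194928 with YAP, and at 29181489 and 29206680 with TAZ. Before the step the geometric mean fold was 3.25 and 3.21 for YAP, and after it 2.92 and 3.01. For TAZ it was 3.26 and 3.11 before the step, and 3.05 and 2.86 after it. The step accounted for 9.54% and 4.15% of the variance of log2 fold between YAP peaks and for 4.31% and 7.29% between TAZ peaks. The same split made on every chromosome explained a smaller share on each of the other 22, in all 4 libraries. Chromosome 19, taken whole, was nearly level with it, at 9.25% and 3.85% for YAP and 4.27% and 6.24% for TAZ. In size, chromosome 22 did not have the largest step in any library. Its mean log2 fold differed by 0.156 and 0.0901 for YAP and by 0.0976 and 0.1204 for TAZ. On chromosome 19 the differences were 0.179 and 0.0997 for YAP and 0.108 and 0.1197 for TAZ. Chromosome 5 had -0.135 in TAZ replicate 2. On chromosome 17 the split explained 2.66% and 0.912% with YAP and 1.01% and 1.98% with TAZ, and ran in the other direction.

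Splitting on −log10 p instead of fold gave the same 4 positions. With peaks of up to 2000 bp only, the last peak before the step ended at 29262966 and 29412017 for YAP and at 28957408 and 29194848 for TAZ. The position was sought after the window values had been seen, and the fold that defines it also raises peak rank. Differences in fold and rank across it are thus a description. The segments used from here on are a proximal one, from 16052005 to 29181489, and a distal one, from 29264567 to 51219846. The stretch between them held 12 and 21 YAP peaks and 19 and 18 TAZ peaks, none of them strong.

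The proximal segment, of 13.1 Mb, held most strong peaks of the chromosome. It had 89 and 101 with YAP and 115 and 106 with TAZ. The distal segment, of 21.96 Mb, held 5 and 23 with YAP and 36 and 25 with TAZ. In shares, 4.18% of the proximal peaks of YAP replicate 1 were strong (3.41 to 5.12%), against 0.138% of its distal peaks (0.0589 to 0.322%). In YAP replicate 2 the shares were 4.82% (3.98 to 5.82%) and 0.695% (0.463 to 1.04%). TAZ replicate 1 had 5.53% (4.63 to 6.60%) in the proximal and 1.06% (0.769 to 1.47%) in the distal segment. TAZ replicate 2 had 5.26% (4.37 to 6.33%) and 0.710% (0.481 to 1.05%). Since the segments were divided by fold in these same libraries, a gap of this kind was built in and is no support for the split. The proximal share was 30.3 and 6.93 times the distal one for YAP, and 5.21 and 7.41 times for TAZ.

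A shorter or longer list of strong peaks showed the same split. These lists are cuts of the same ranking in segments divided by fold, so this too is no separate support. Among the 5000 best-ranked peaks, the proximal segment held 18 and 19 for YAP and 30 and 25 for TAZ, and the distal one held 1 and 3 for YAP and 3 and 5 for TAZ. Among the best 50000, it held 277 and 300 for YAP and 309 and 314 for TAZ, and the distal one held 38 and 91 with YAP and 134 and 119 with TAZ. The last strong peak before the step lay close to it in every library. It ended at 28970419 and 28955063 for YAP and at 28921441 and 28957318 for TAZ. The next strong peak followed 6997 and 1798 kb later for YAP, and 654 and 616 kb later for TAZ. After the step, the wait for a strong peak was thus longest in YAP replicate 1.

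In 1 Mb windows the change was abrupt. The window from 28000001 to 29000000 held 7 and 10 strong YAP peaks and 7 and 11 strong TAZ peaks. The next window, from 29000001 to 30000000, held 0 and 0 with YAP and 2 and 2 with TAZ. Each of the 13 windows wholly in the proximal segment held at least 3 strong peaks in every library, and up to 16. Of the 22 distal windows, 18 held none in YAP replicate 1 and 6 held none in YAP replicate 2. For TAZ, 5 and 7 of the 22 held none. The median fold of a proximal window ranged from 3.07 to 3.47 in YAP replicate 1, and that of a distal window from 2.76 to 3.05. In TAZ replicate 2 the ranges were 2.95 to 3.28 and 2.70 to 2.92. In those libraries the ranges of the segments did not meet. They did meet in YAP replicate 2 (3.07 to 3.32 and 2.89 to 3.11) and, with 3.01 to 3.37 and 2.86 to 3.12, in the first TAZ library.

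**Figure D1:**
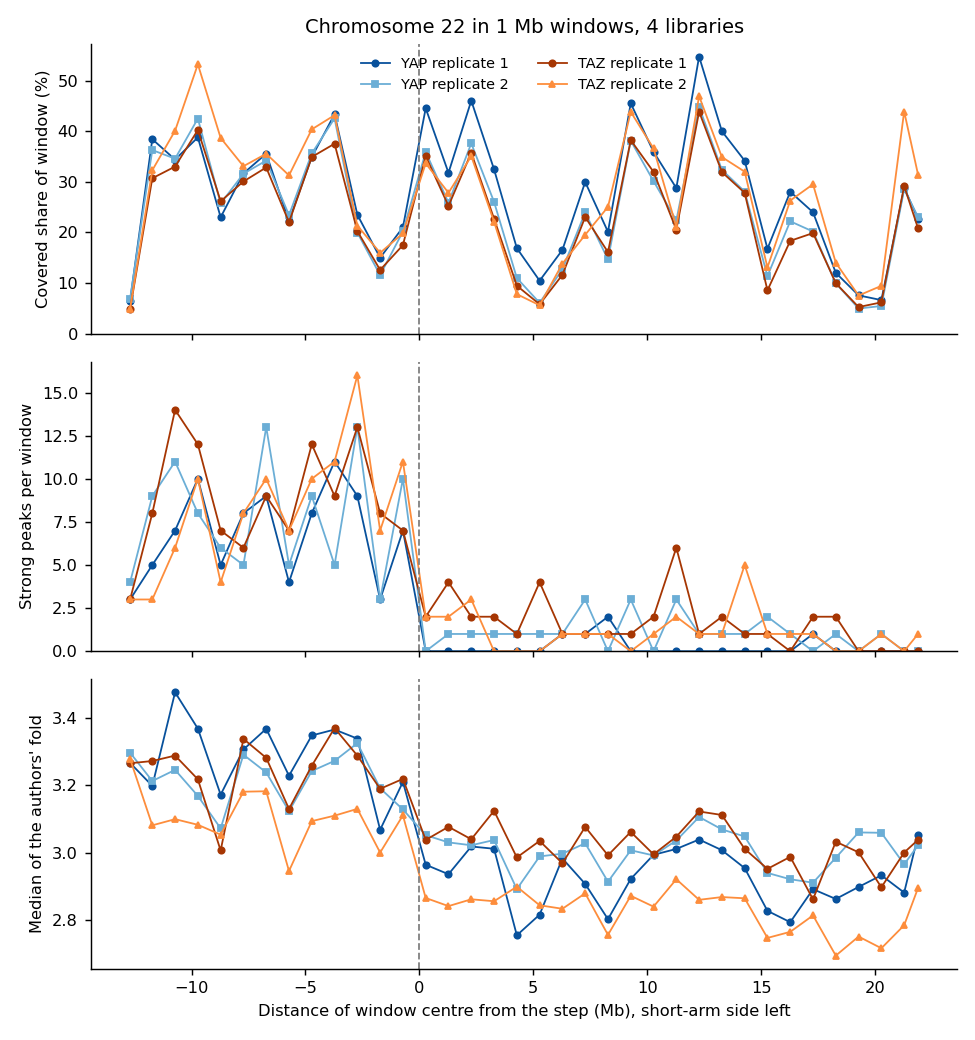
Covered share (top), number of strong peaks (middle) and median of the authors' fold (bottom) in each 1 Mb window of chromosome 22, against the distance of the window's centre from the step; each line is 1 library and the dashed line marks the step. Strong peaks fall to between 0 and 6 per window right of the step in all 4 libraries, while covered share has high and low windows on both sides.

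The amount of covered chromatin changed far less across the step. The proximal segment had 29.0% and 28.7% of its bases under YAP peaks, and the distal one 27.3% and 21.97%. For TAZ it was 26.9% and 31.9% in the proximal and 21.3% and 24.8% in the distal segment. The difference was 5.30 percentage points in the mean of the 4 libraries, with the proximal segment higher in each. Peaks were about as frequent on both sides, with 162 and 160 per Mb for YAP in the proximal segment and 165 and 151 in the distal one. For TAZ the numbers were 158 and 153 per Mb in the proximal segment and 154 and 160 in the distal one, so neither antibody's libraries shared a direction. The median width was 1007.5 and 1108.5 bp for YAP in the proximal segment and 962.5 and 980 bp in the distal one. For TAZ it was 1052 and 1203.5 bp in the proximal segment and 925 and 1043 bp in the distal one.

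Peaks of high fold became rare after the step. Folds of 4 or more belonged to 12.5% and 9.26% of the proximal YAP peaks and 1.99% and 2.51% of the distal ones. For TAZ the shares were 11.4% and 5.11% in the proximal and 4.02% and 1.42% in the distal segment. Over all chromosomes the share was 9.22% and 7.52% of the YAP peaks and 9.68% and 5.6% of the TAZ peaks. The proximal share exceeded that of all chromosomes in 3 libraries and lay below it in TAZ replicate 2. Every distal share was below that of all chromosomes.

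Within the same band of fold, distal peaks also had a lower −log10 p. A band does not match fold exactly, and distal folds may lie lower within it, which was not examined. Among peaks with a fold of 2.8 to 3.4 and a width of 250 to 700 bp, its proximal median was 4.97 and 4.25 for YAP, and its distal median 4.51 and 4.04. For TAZ the proximal median was 4.03 and 4.05 and the distal one 3.81 and 3.78. The medians on chromosome 17, 4.97 and 4.34 for YAP and 4.07 and 4.10 for TAZ, lay near the proximal ones. Among peaks with a fold of 4 to 4.5, YAP replicate 2 had 54 strong peaks of 155 in the proximal and 12 of 72 in the distal segment. TAZ replicate 2 had 58 of 72 in the proximal and 15 of 40 in the distal segment. Strong peaks are chosen by −log10 q, the corrected form of this p. Fewer strong peaks within a band of fold thus restate the lower −log10 p and are no separate result. What lowered −log10 p in the distal segment was not tested.

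**Figure D2:**
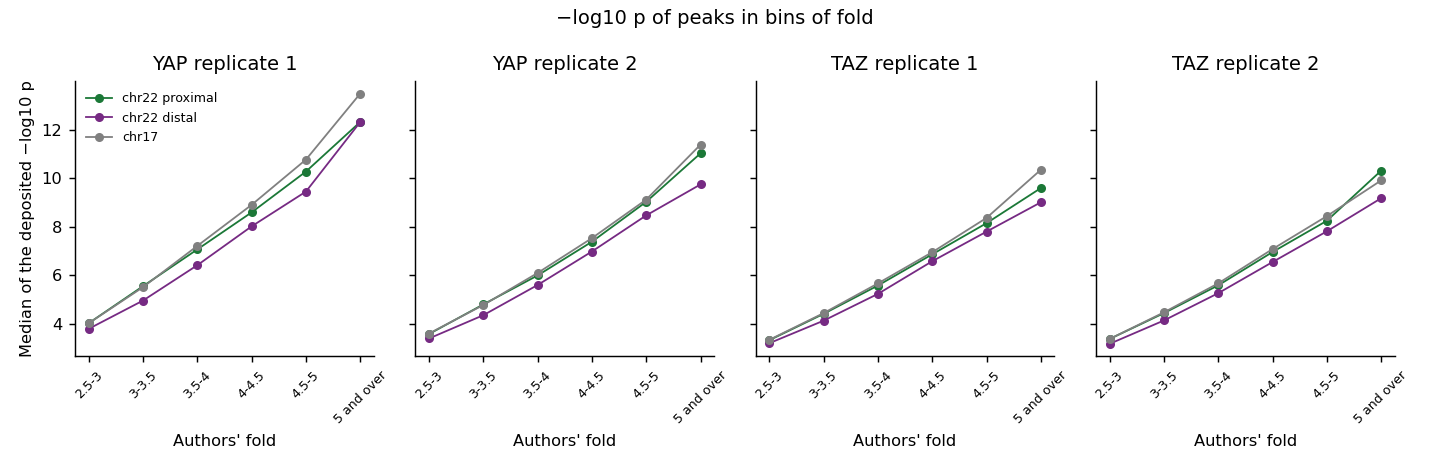
Median of the deposited −log10 p (vertical axis) of peaks in 6 bins of the authors' fold (horizontal axis), in 1 panel per library, for the proximal and distal segments of chromosome 22 and for chromosome 17. The distal line lies below the proximal line in every bin; at a fold of 3 to 3.5 the medians are 5.56 and 4.96 in YAP replicate 1 and 4.45 and 4.15 in TAZ replicate 2.

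Set beside other gene-rich chromosomes, the proximal segment was higher and the distal segment lower in median fold. Chromosome 17 and chromosome 19 without its stretch from 30 to 45 Mb served for this. Only chromosome 22 was cut where fold changes most, so a higher and a lower part were built in. The higher side of the split of chromosome 17 had geometric mean folds of 3.30 and 3.22 (YAP) and 3.26 and 3.12 (TAZ). For chromosome 19, taken whole, the higher side had 3.34 and 3.24 (YAP) and 3.29 and 3.14 (TAZ). For chromosome 22 it had 3.25 and 3.21 (YAP) and 3.26 and 3.11 (TAZ). The proximal segment had a higher median fold than chromosome 17 in all 4 libraries, at 3.29 and 3.22 against 3.22 and 3.17 for YAP and at 3.24 and 3.09 against 3.20 and 3.05 for TAZ. In the distal segment it was 2.92 and 3.01 with YAP and 3.03 and 2.83 with TAZ. On chromosome 19 outside the stretch it was 3.21 and 3.18 with YAP and 3.21 and 3.05 with TAZ. The share of strong peaks in the proximal segment, 4.18 to 5.53% over the 4 libraries, was below that of chromosome 17 (5.15 to 5.35%) in 3 libraries and above it in TAZ replicate 1, and lay above the 3.62 to 3.98% of chromosome 19 outside the stretch. In the distal segment it was 0.138 to 1.06%. On chromosome X, the lowest of the chromosomes in the mean over libraries, it was 0.282% and 0.755% for YAP and 1.24% and 1.39% for TAZ.

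**Figure D3:**
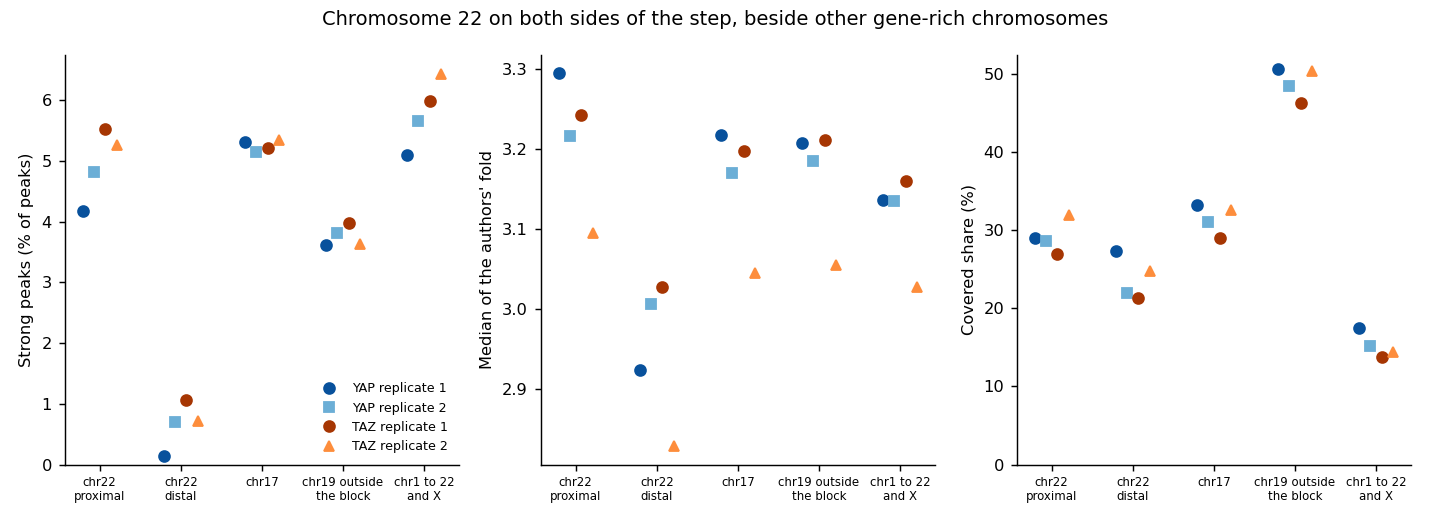
Share of peaks that are strong (left), median of the authors' fold (middle; the axis does not start at 0) and covered share (right) in both segments of chromosome 22, on chromosome 17, on chromosome 19 outside 30 to 45 Mb and on all chromosomes; each point is 1 library. The distal segment stands apart in strong peaks, at 0.138 to 1.06%, and in fold, as the cut by fold favours, but not in covered share.

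Coverage put chromosome 22 as a whole below both comparison chromosomes. Against 28.0% and 24.5% for YAP on chromosome 22, peaks covered 33.3% and 31.0% of chromosome 17 and 50.6% and 48.5% of chromosome 19 outside the stretch. For TAZ, 23.4% and 27.5% of chromosome 22 compared with 29.0% and 32.5% of chromosome 17 and 46.3% and 50.3% of chromosome 19 outside the stretch. The mean difference over the 4 libraries was -5.58 percentage points from chromosome 17 and -23.04 from chromosome 19. Peak width differed most from chromosome 19. The median peak of chromosome 19 outside the stretch measured 1777 and 1592 bp for YAP and 1556 and 1559 bp for TAZ, while its peaks per Mb, 130 to 149, were fewer than the 154 to 164 of chromosome 22.

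Along chromosome 22, covered share rose and fell over short distances in the same places in all libraries. In the mean of the 4 libraries the fullest window lay in the distal segment from 41000001 to 42000000. It was covered to 54.8% and 44.8% by YAP peaks and to 43.9% and 47.0% by TAZ peaks, but held 0 and 1 strong YAP peaks and 1 and 1 strong TAZ peaks. Its peaks were the widest of the chromosome in every library but TAZ replicate 2, with medians of 2051 and 1818 bp for YAP and 1830 and 1663 bp for TAZ. The window from 19000001 to 20000000 was covered to 38.8% and 42.5% for YAP and to 40.3% and 53.3% for TAZ. In TAZ replicate 2 it was the fullest of all windows. It held 10 and 8 strong YAP peaks and 12 and 10 strong TAZ peaks. The window from 25000001 to 26000000 was covered to 43.4% and 42.6% for YAP and to 37.6% and 43.2% for TAZ. Similar coverage thus went with many strong peaks before the step and with few after it.

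The 3 windows with the lowest mean coverage lay towards the ends of the covered span. The window that starts with the chromosome's outermost peak, at 16052005, and ends at 17000000 was covered to 6.5% and 6.92% for YAP and to 4.88% and 4.94% for TAZ. It still held 3 and 4 strong YAP peaks and 3 and 3 strong TAZ peaks, on 54 and 53 YAP and 42 and 34 TAZ peaks. The window from 48000001 to 49000000 was covered to 7.56% and 4.96% for YAP and to 5.25% and 7.54% for TAZ and held no strong peak in any library. The window from 49000001 to 50000000 was covered to 6.63% and 5.46% for YAP and to 6.18% and 9.45% for TAZ. The window from 34000001 to 35000000, in the middle of the arm, was close behind, at 10.5% and 6.08% for YAP and 5.80% and 5.61% for TAZ. At the far end, coverage was high again, at 28.8% and 28.5% for YAP and 29.2% and 43.9% for TAZ in the window from 50000001 to 51000000. No strong peak lay in that window in any library.

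Across the 36 windows, covered share had a Spearman's rho between 0.841 and 0.986 in the 6 pairs of libraries. The highest value was between YAP replicate 2 and TAZ replicate 1, and the lowest between YAP replicate 1 and TAZ replicate 2. The YAP pair had 0.961 and the TAZ pair 0.935. Mean covered share followed the mean of the median widths (rho 0.945) more closely than the number of peaks (0.698), the fold (0.448) or the number of strong peaks (0.311). Neighbouring windows and libraries with a common input are not independent, so these values describe the map only.

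YAP and TAZ were then compared on chromosome 22 with the library as the replicate. Lists held 5596.5 ± 239.7 peaks on average for YAP and 5518 ± 49.5 for TAZ (SD, n = 2 each), a difference of 78.5 (exact two-sided permutation p = 1). The covered share averaged 26.3% ± 2.5 with YAP and 25.5% ± 2.9 with TAZ (SD, n = 2 each; exact permutation p = 0.667). The median width averaged 1000.75 ± 24.4 bp with YAP and 1036 ± 84.9 bp with TAZ (SD, n = 2 each; exact permutation p = 1). The median fold averaged 3.04 ± 0.030 with YAP and 3.00 ± 0.14 with TAZ (SD, n = 2 each; exact permutation p = 1). In these measures the libraries of the antibodies overlapped. With 2 libraries against 2, no p below 0.3333 is possible, so the test could not have passed 0.05 in any case.

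Set against the length of its list, chromosome 22 took a smaller share of the YAP than of the TAZ peaks. The share was 1.47% and 1.54% for YAP and 1.64% and 1.79% for TAZ, so that the groups did not overlap. The difference of -0.213 percentage points reached the smallest p the design allows (exact two-sided permutation p = 0.3333). It was -0.141 without TAZ replicate 2 and -0.0498 with a q-value limit of 0.01. Among peaks with a fold of 4 or more it was -0.0320, and the antibodies overlapped (exact permutation p = 1). Chromosome 17 showed the same order, with 3.5% and 3.81% for YAP and 4.06% and 4.15% for TAZ. Chromosome 19 outside the stretch showed it as well, with 1.60% and 1.82% for YAP and 1.97% and 1.85% for TAZ. Of the 20000 strong peaks, 0.470% and 0.620% were on chromosome 22 for YAP and 0.755% and 0.655% for TAZ, again without overlap. On chromosome 17 the antibodies overlapped in this share, with 3.65% and 3.465% for YAP and 3.535% and 3.445% for TAZ. They also overlapped on chromosome 19 outside the stretch, with 1.14% and 1.225% for YAP and 1.31% and 1.045% for TAZ. In the distal segment, the strong peaks of YAP replicate 1, at 5, were far fewer than the 23 to 36 of the other 3 libraries.

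The windows gave the same picture. In 10 of the 36 windows both YAP libraries were covered more than both TAZ libraries, which is 27.8%, against 72% of the 2887 windows of all chromosomes. In 2 windows, or 5.56%, both TAZ libraries exceeded both YAP libraries, against 1.84% of all windows. After covered share was divided by the mean covered share of the library, YAP was above in 3 windows, which is 8.33%, against 47.2% of all windows. TAZ was above in 20, which is 55.6%, against 16.2% of all windows. Before that division, the count for YAP was 10 without YAP replicate 1 or TAZ replicate 1, 22 without YAP replicate 2 and 24 without TAZ replicate 2; leaving out a library can only keep or raise it. After the division, chromosomes 17 and 19 lay on the same side. TAZ was then above in 42.5% of 80 windows of chromosome 17 and in 60.5% of 43 windows of chromosome 19 outside the stretch. Within chromosome 22, also after the division, TAZ was above in 9 of 13 proximal and 11 of 22 distal windows. The difference between segments was not tested.

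Single libraries stood behind the largest differences. YAP exceeded TAZ most in the window from 32000001 to 33000000, with 32.5% and 26.1% against 22.7% and 22.1%. Next came the window from 31000001 to 32000000, with 46.1% and 37.6% for YAP and 35.8% and 35.1% for TAZ. In the window from 17000001 to 18000000 the values were 38.4% and 36.3% for YAP and 30.7% and 32.3% for TAZ. In the first 2 of these windows YAP replicate 1 lay well above its replicate, while the window from 17000001 had replicates close together. TAZ exceeded YAP most in the window from 20000001 to 21000000, with 23.005% and 25.7% with YAP and 26.2% and 38.7% with TAZ. The window from 50000001 to 51000000 followed, with the values given above, and then that from 19000001 to 20000000. In these 3 windows TAZ replicate 2 alone was high, and TAZ replicate 1 lay near the YAP libraries. Of the 36 windows, 21 had their highest coverage in YAP replicate 1 and 14 in TAZ replicate 2. After division by the library mean these numbers were 7 and 26. Of the 2887 windows of all chromosomes, YAP replicate 1 was highest in 2520 and TAZ replicate 2 in 353. After the division these were 1711 and 576. YAP replicate 1 was thus highest in a smaller part of the windows on chromosome 22 than over all chromosomes. Before division, YAP replicate 1 was highest in 5 of 13 proximal and 15 of 22 distal windows.

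**Figure D4:**
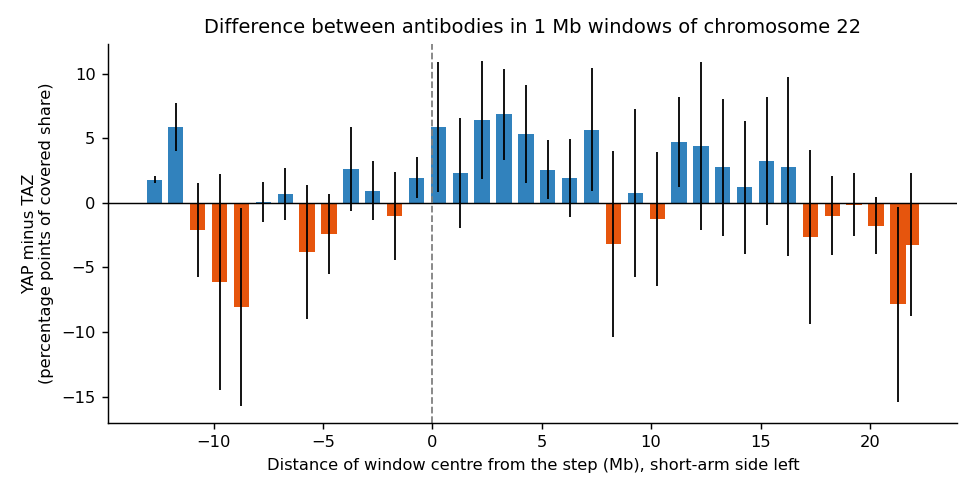
Mean covered share of the YAP libraries minus that of the TAZ libraries, in percentage points, in each 1 Mb window of chromosome 22, against distance from the step (dashed); black lines span the 4 differences between a YAP and a TAZ library. The black line keeps to the YAP side of 0 in 10 windows and to the TAZ side in 2.

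Libraries shared fewer bases in the distal than in the proximal segment. Of the proximal bases under a peak of any library, 35.8% were under peaks of all 4 and 28.4% under peaks of 1 library only. For the distal segment the shares were 20.2% and 34.0%. On chromosome 17 they were 37.2% and 23.5%, and on chromosome 19 outside the stretch 49.2% and 15.3%, where covered share was also higher. Counted by peaks, 66.7% and 69.2% of the proximal YAP peaks and 73.6% and 72.9% of the proximal TAZ peaks overlapped a peak in each of the other 3 libraries. The distal shares were 48.2% and 56.1% for YAP and 55.8% and 53.2% for TAZ. Peaks found in no other library made up 9.60% and 5.20% of the distal YAP peaks and 6.91% and 12.8% of the distal TAZ peaks. In the proximal segment they made up 3.99% and 3.20% for YAP and 3.27% and 7.60% for TAZ. On chromosome 17 the shares were 4.79% and 2.79% for YAP and 2.81% and 5.34% for TAZ. TAZ replicate 2 had the highest share in each of these.

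The overlap of covered bases, as the Jaccard index (bases in both lists over bases in either), did not sort by antibody. The YAP pair had 0.594 on chromosome 22 and the TAZ pair 0.447, the lowest of the 6 pairs. Across antibodies, the 4 pairs ranged from 0.457 to 0.536. The mean within antibodies exceeded the mean between them by 0.0303. Leaving out YAP replicate 1 or YAP replicate 2 turned this to -0.0336 and -0.0533, so the sign rested on the YAP pair. Bases under both YAP peaks and no TAZ peak came to 848 kb, or 5.63% of the covered bases, and those under both TAZ and no YAP peak to 544 kb, or 3.61%. The same shares were 4.90% and 3.46% on chromosome 17. On chromosome 19 outside the stretch they were 3.89% and 3.05%.

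**Figure D5:**
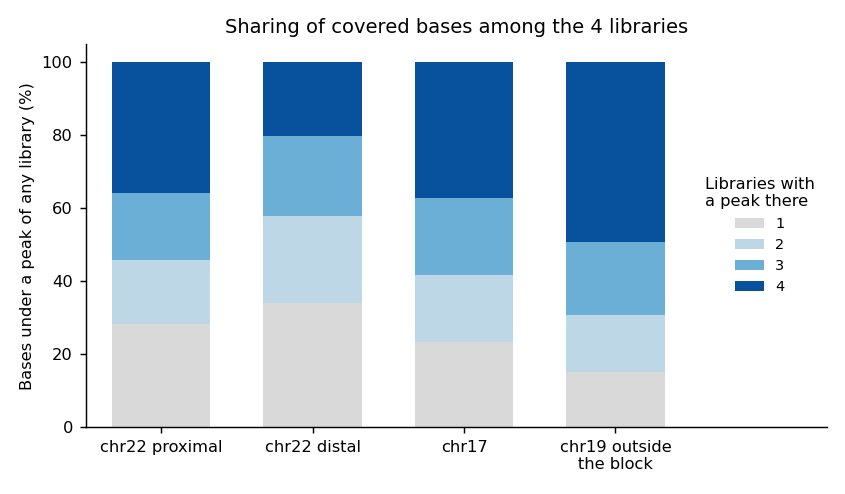
Bases under a peak of any library, in percent of these bases, split by the number of libraries (1 to 4) with a peak there, for both segments of chromosome 22, chromosome 17 and chromosome 19 outside 30 to 45 Mb. Bases common to all 4 libraries make up 35.8% in the proximal and 20.2% in the distal segment.

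Merging overlapping strong peaks of all libraries left 417 regions on chromosome 22, 329 of them proximal and 88 distal. Strong peaks of both YAP libraries met in 12 regions (2.88%, against 6.9% of the regions of all chromosomes) and those of both TAZ libraries in 16 (3.84%, against 5.79%). All of these were proximal. Of the 88 distal regions, none was strong in both libraries of an antibody. The approximate 95% upper limit for a count of 0 (3 divided by 88, no Wilson limit) was 3.41%. It takes regions as independent, in a segment cut to be low in fold. In the distal segment, 1 region was strong in more than 1 library, against 22% of the regions of all chromosomes. It lay from 30752895 to 30754147, was strong in YAP replicate 2 (fold 4.33) and TAZ replicate 1 (fold 4.75), and had a fold of 3.46 in YAP replicate 1 and 3.22 in TAZ replicate 2. No region strong in both libraries of 1 antibody lacked a peak of the other antibody. Over all chromosomes such regions were also rare, at 1.64% of those strong in both YAP and 0.308% of those strong in both TAZ libraries.

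A single region of chromosome 22 was strong in all 4 libraries (0.240% of 417, against 1.28% of all regions). It lay from 18879792 to 18880240, with folds of 2.41 and 2.84 in the YAP and 2.8 and 2.67 in the TAZ libraries, below the median fold of the chromosome in each library. A neighbour from 18883594 to 18884020 was strong in 3 libraries, with 2.32 and 2.44 for YAP and 2.62 for TAZ replicate 1, and overlapped no peak of TAZ replicate 2. It was the best-ranked chromosome 22 peak of those 3 libraries, at rank 691 and 159 for YAP and 260 for TAZ replicate 1. Both thus combined a high rank with a low fold.

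The other regions strong with both YAP libraries were ordered by the sum of their ranks. The one from 16847882 to 16862640 came next, with YAP folds of 3.57 and 3.45 and TAZ folds of 3.10 and 2.68. From 22656541 to 22657444 the YAP folds were 4.37 and 4.64, and the TAZ folds 3.42 and 3.94. From 22213404 to 22213878 the YAP folds were 4.56 and 4.38, and the TAZ folds 3.70 and 3.77. These YAP folds were above the TAZ folds, as the choice of regions by YAP rank favours.

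Among regions strong with both TAZ libraries, after the one strong in all 4, the lowest rank sum was that from 26886423 to 26886885. Its YAP folds were 4.79 and 3.98, and its TAZ folds 5.03 and 5.73. From 24712600 to 24714865 the YAP folds were 3.39 and 3.62, and the TAZ folds 5.14 and 5.35. The next by rank sum, from 25488392 to 25490017, had YAP folds of 3.64 and 3.16 and TAZ folds of 4.51 and 3.54. The fifth of the 16, from 19204774 to 19205433, had YAP folds of 4.36 and 3.39 and TAZ folds of 5.26 and 4.52. The best-ranked chromosome 22 peak of TAZ replicate 2, at rank 145, lay from 19853644 to 19854000 with a fold of 6.17, and peaks of all other libraries overlapped it.

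In the distal segment the best-ranked peaks were different places in each library. For YAP they lay from 46712755 to 46713213 (fold 5.40, rank 3794) and from 38550983 to 38551400 (fold 5.29, rank 2490). For TAZ they lay from 46433417 to 46433902 (fold 5.48, rank 2247) and from 45991643 to 45991997 (fold 5.09, rank 1955). Each ranked worse than the best proximal peak of its library. At the limit of the strong set, the last strong and the next weaker chromosome 22 peak were close in −log10 q, at 7.92 and 7.91 in YAP replicate 1 and at 5.76 and 5.74 in YAP replicate 2. For TAZ they had 5.36 and 5.32 in replicate 1 and 4.65 and 4.64 in replicate 2.

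Wide peaks of at least 10 kb were also placed unevenly. The proximal segment held 34 and 28 with YAP and 18 and 46 with TAZ. The longer distal segment held 42 and 12 for YAP and 10 and 17 for TAZ. Over the whole chromosome they were 1.35% and 0.737% of the YAP peaks and 0.511% and 1.15% of the TAZ peaks. Over all chromosomes the shares were 0.877% and 0.766% for YAP and 0.615% and 0.982% for TAZ, so chromosome 22 was near the background. On chromosome 19 outside the stretch they were 7.47% and 7.13% for YAP and 6.05% and 8.42% for TAZ. Wide peaks of all 4 libraries overlapped in 6 places, all proximal and 84.7 kb in sum. In the distal segment, 42.1 kb lay under wide peaks of 3 libraries and none under those of all 4.

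The broadest of these 6 places ran from 24057795 to 24082906. The peak there measured 26761 and 25700 bp for YAP and 25735 and 28914 bp for TAZ, with YAP folds of 3.64 and 3.44 and TAZ folds of 3.53 and 3.11. Its right border lay at 24084555 and 24082906 with YAP, and at 24082910 and 24082998 with TAZ. The place from 16848104 to 16862471 lay next to a peak-free stretch, and its peak measured 14759 and 14624 bp for YAP and 14544 and 14500 bp for TAZ, the narrowest spread of the 6. When the peaks of all libraries were merged, the widest region spanned 42493 bp in the distal segment, from 31747190 to 31789682. It was 1 peak of 40410 bp in YAP replicate 1 beside a small one. The second YAP library broke it into 7 peaks, and the TAZ libraries into 9 and 6. The next widest, 36938 bp from 20124697 to 20161634, was covered to 97.0% by TAZ replicate 2 alone, and to 32.6% and 42.2% by the YAP libraries and 56.8% by TAZ replicate 1.

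Long stretches without any peak also lay in the proximal segment: it held the 5 longest. The longest ran from 20449981 to 20627139 (177 kb), followed by 16693415 to 16847881 (154 kb) and 16500925 to 16627244 (126 kb). The stretch from 16693415 ended where the wide peak from 16847882 described above began. Whether these stretches hold sequence that reads can be mapped to was not examined.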

How the data were processed

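The chromosome, the segments and the settings were chosen with earlier results of these data known. The tools named, per the submitters' processing notes, are MACS2, Bowtie2, cutadapt and SAMtools, and the build is hg19. Their versions are not given in the sources used here. Each peak's deposited values were start and end, the authors' fold (ratio of ChIP to input) and the deposited −log10 p and −log10 q; the deposited score was not used. The smallest deposited −log10 q was 1.00 to 1.02 in the 4 lists.

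Peaks on chromosomes 1 to 22 and X were ranked within a library by −log10 q; −log10 p, then fold, then position broke ties. Covered share was taken over the span from the outermost peaks of all libraries, and in 1 Mb windows clipped to that span. Peaks were put into windows by their midpoint. Overlap meant at least 1 bp. The step was the single split of log2 fold along the peaks that explains most variance, with at least 50 peaks on each side. Windows and regions named in the text are those with the highest or lowest coverage, the largest difference between antibodies, the lowest rank sum, or the greatest width; others, such as the windows beside the step, were chosen after their values were seen. Exact two-sided permutation tests compared 2 with 2 libraries. Python 3.11.15, numpy, pandas and SciPy 1.17.1 were used, and the functions were tested on simulated intervals and folds. Alternatives were a q-value limit of 0.01, a minimum fold of 4, lists shortened to the shortest, other numbers of strong peaks, other windows, the replicate block and each library left out.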

Additional observations from a re-analysis of the deposited data

How the results depend on the processing

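Of 103 recomputed values for 13 results, 64 were classed as the same, 25 as moved and 14 as reversed in sign. For results with a test, the same meant only the same sign. For the others it also meant a size near the main value, and moved values kept their sign. Size could change within the first class. The replicate block left each difference as it was and altered only p, so its values were the same by construction. Leaving out 1 library also cannot turn the sign of a difference between antibodies whose libraries do not overlap. A q-value limit of 0.01 gave a YAP minus TAZ difference of 1152.5 peaks and 5.35 percentage points of covered share. No test could pass 0.05, so this shows little about stability of the antibody differences. With lists shortened to the shortest, the YAP minus TAZ difference turned to -937 peaks, -2.29 percentage points of covered share and 48.5 bp of median width. A fold of at least 4 gave 84 bp of width, -0.0646 in median fold and -0.00548 for the Jaccard contrast, and a q-value of at most 0.01 gave -0.0976 in median fold. Leaving out 1 library gave -91 to 248 peaks, -1.21 to 2.84 percentage points of covered share, -95.25 to 24.75 bp of width, -0.0583 to 0.133 in median fold, -0.0533 to 0.133 for the Jaccard contrast and 10 to 24 windows with YAP above. That window count was 28 with a q-value of at most 0.01, 4 with shortened lists, 20 in 500 kb windows, 4 in 2 Mb windows and 3 after division by the library total.

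With 5000 and 50000 strong peaks, the YAP minus TAZ difference on chromosome 22 was -11 and -85.5, the strong share of its peaks 0.469% and 7.14%, and the proximal minus distal difference 1.02 and 11.7 percentage points, as the number itself dictates. Ranking by fold gave a share of 3.505% and a proximal minus distal difference of 4.88 percentage points. The covered share of chromosome 22 minus that of chromosome 17 was -7.15 with a q-value of at most 0.01, -0.662 with a fold of at least 4, -6.28 with shortened lists and -6.38 over windows with a peak in every library. Against chromosome 19 it was -24.5, -0.988 and -25.4 for the same settings other than shortened lists. Proximal minus distal covered share was 8.01 with a q-value of at most 0.01 and 1.68 with a fold of at least 4. The comparison across the step and the windows with a peak in every library were added after seeing the data.

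The labels give replicates only a number, but the list names tie each number to an input. The difference of replicate 1 and replicate 2 with YAP followed that with TAZ across the 36 windows of chromosome 22 (r = 0.548) and the 2887 windows of all chromosomes (r = 0.425). With 2 pairs, this does not establish a pairing. With the replicate block, the difference in peak number was 78.5 (exact sign-flip permutation p = 1) and that in the share of the library's peaks -0.213 (exact p = 0.5, the smallest 2 pairs allow). The unknown depth limits every statement on list length.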
